A study of Arabidopsis thaliana with 6 samples.

Results

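The 9 genes described here carry the DNA damage signal in Arabidopsis from the break or the stalled fork to the transcription factors that answer it. They were chosen by gene identifier for their known roles: the kinases *ATM* (AT3G48190), *ATR* (AT5G40820) and *WEE1* (AT1G02970), the MRN complex genes *MRE11* (AT5G54260), *RAD50* (AT2G31970) and *NBS1* (AT3G02680), and the NAC factors *SOG1* (AT1G25580), *ANAC044* (AT3G01600) and *ANAC085* (AT5G14490). They are 9 of the 32998 genes in the deposited table. All 9 passed the read filter of the test, *ANAC085* only through its *mdf-1* libraries. The RNA-seq libraries came from complete seedlings, 12 days old and grown on plates with no DNA-damaging agent. 3 libraries were made from WT seedlings of the accession Columbia and 3 from *mdf-1*, a T-DNA insertion line in the Columbia background, in *MDF*, which encodes a plant homologue of the splicing factor SART1. All 3 mutant libraries carry this 1 insertion allele, and each library is a separate biological replicate of its genotype.

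In plants, ATM responds mainly to double-strand breaks, which the MRN complex (MRE11, RAD50 and NBS1) recognizes, and ATR responds to single-stranded DNA at stalled replication forks. Both kinases can phosphorylate SOG1, a plant-specific NAC transcription factor that takes the place p53 has in animals, and SOG1 switches on genes for DNA repair and for the arrest of the cell cycle. *ANAC044* and *ANAC085* encode the NAC factors closest to SOG1, are direct SOG1 targets and are needed for the stop before mitosis after damage, and WEE1 restrains the cell cycle when replication is disturbed.

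In *mdf-1*, transcripts of both downstream NAC factors were higher, and transcripts of the kinases *ATM* and *ATR* and of *RAD50* were lower. No difference passed the test for *SOG1*, *WEE1*, *MRE11* and *NBS1*. *ANAC085* went from near 0 in WT to 5.23 ± 0.30 on the log2 scale above it, and *ANAC044* rose by 2.43 ± 0.23 (log2 fold change ± SE, edgeR, n = 3 libraries per genotype). On the same scale, *ATR* fell by 2.06 ± 0.12, *ATM* fell by 1.31 ± 0.069 and *RAD50* fell by 0.76 ± 0.060. Thus 2 of the 9 genes were called higher and 3 lower at an adjusted p below 0.05. These calls are frequent in this comparison: 33.5% of the 22397 tested genes were called higher in *mdf-1* and 33.9% lower. Scaling by total counts instead of by TMM, edgeR's factors for library composition, moved the median over all genes to -0.139 (log2) and the split of calls from 7504 higher and 7585 lower to 5561 higher and 9339 lower, with the 5 calls among the 9 genes kept. The values of the *mdf-1* and WT libraries did not overlap for those 5 genes, where 73.2% of all tested genes show no overlap. The median log2 fold change was 0.11 over the 9 genes and 0.01 over all tested genes. Because the libraries are from complete seedlings, fewer cells of a type and less RNA per cell cannot be told apart.

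**Figure D1:**
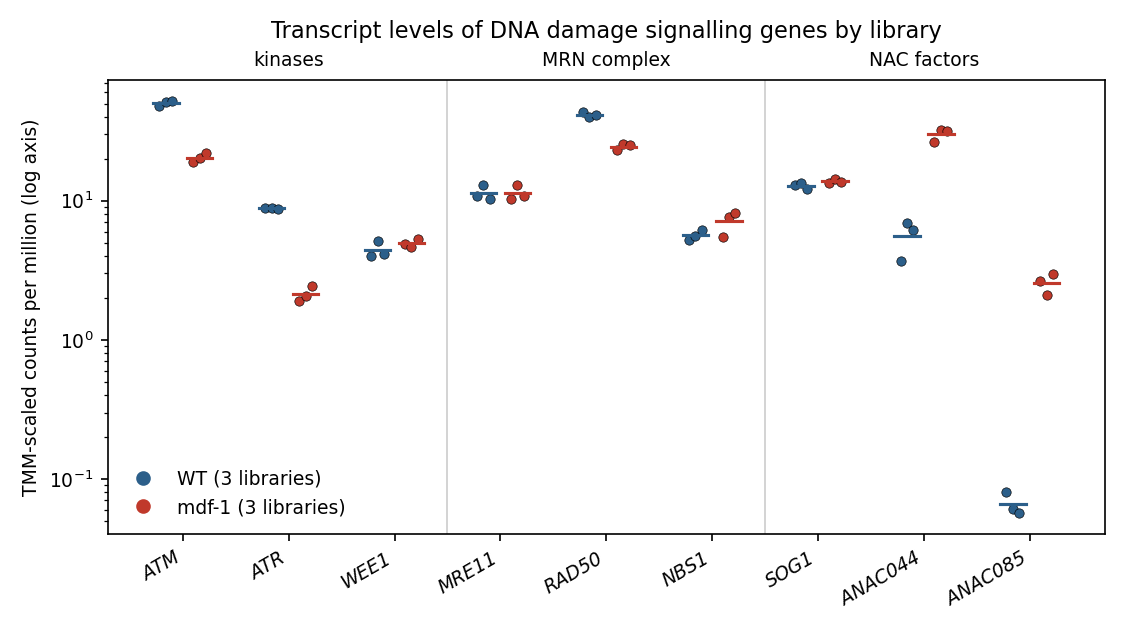
Level of each of the 9 genes in every library, as TMM-scaled CPM (counts per 1000000 counts of the library) on a log axis, with WT in blue and *mdf-1* in red; points are libraries and bars are means of 3. Red and blue points are apart for *ATM*, *ATR*, *RAD50*, *ANAC044* and *ANAC085* and overlap for *WEE1*, *MRE11*, *NBS1* and *SOG1*.

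The sequences that bear on the 2 responding NAC factors are the region in front of each gene and, for *ANAC085*, an intron. SOG1 binds a palindrome made of CTT, 7 bases of any kind and AAG. The window from 250 bases before to 50 bases after the annotated start was read for all 27443 protein-coding genes from the RefSeq genome (TAIR10.1), and 11.8% of these windows held the palindrome on either strand (it reads the same on both). Among the 9 genes it was in the window of *ANAC044* alone, where it starts 65 bases before the start. The palindrome and, further upstream, AACGG, the core of the element bound by MYB3R factors of mitotic genes, are in capitals in the *ANAC044* window (chr3:228825-229124, plus strand):
ANAC044: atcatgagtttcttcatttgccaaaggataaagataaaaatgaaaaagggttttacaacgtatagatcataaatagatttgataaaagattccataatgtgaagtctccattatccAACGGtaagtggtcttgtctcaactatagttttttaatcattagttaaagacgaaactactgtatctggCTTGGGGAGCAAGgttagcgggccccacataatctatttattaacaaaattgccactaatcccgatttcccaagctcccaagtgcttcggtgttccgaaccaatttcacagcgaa
The *ANAC085* window (chr5:4672909-4673208, minus strand) held no palindrome in these letters. It did hold TTTCCCGC, a site of E2F factors, in capitals 58 bases before the start:
ANAC085: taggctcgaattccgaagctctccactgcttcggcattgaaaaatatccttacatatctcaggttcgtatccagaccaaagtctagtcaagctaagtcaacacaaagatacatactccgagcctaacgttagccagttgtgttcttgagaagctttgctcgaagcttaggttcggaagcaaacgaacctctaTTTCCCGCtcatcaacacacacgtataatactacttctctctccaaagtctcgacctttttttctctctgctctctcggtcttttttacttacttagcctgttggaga
That site was in 0.798% of all windows, searched on both strands, and the other E2F site, TTTGGCGC, was in 0.434% and in none of the 9. AACGG is short and was in 24.7% of all windows, among them those of *ATM*, *WEE1*, *MRE11*, *SOG1* and *ANAC044*. A match is a description of the letters and says nothing about whether a factor binds there. Distances here and below are from the outermost annotated start of each gene. Annotated *ANAC085* transcripts begin at bases 1, 75, 860 and 887 of the gene, so its sites lie further from the later starts.

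A longer window of 1000 bases before the start was read for the palindrome after the shorter one had been read. It held at least 1 palindrome in 33.3% of the 27443 genes. *ANAC085* had 3, more than any of the other 8 genes, at 548, 307 and 270 bases before its start. The share of all genes with 3 or more was not counted. *WEE1* had 1 at 410 bases and *NBS1* 1 at 326 bases, *ANAC044* had the 1 given above, and *ATM*, *ATR*, *MRE11*, *RAD50* and *SOG1* had none. The outer bases that define the palindrome are in capitals:
ANAC085, chr5:4673494-4673506: CTTgacaaccAAG
ANAC085, chr5:4673253-4673265: CTTggtgatcAAG
ANAC085, chr5:4673216-4673228: CTTatttacgAAG
ANAC044, chr3:229010-229022: CTTggggagcAAG
NBS1, chr3:575982-575994: CTTggcaacgAAG
WEE1, chr1:672896-672908: CTTtagttatAAG
Of these 4 genes with a palindrome, the NAC factors rose in *mdf-1*, while *WEE1* and *NBS1* did not pass the test.

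Among the kinases, the first described is *ATM* (chr3:17801289-17828553, plus strand, TAIR10), which encodes the kinase that starts the answer to double-strand breaks and which has 79 distinct annotated introns. Its level was 19.0, 20.3 and 21.9 CPM (scaled by TMM) in *mdf-1* replicates 1 to 3 and 48.1, 51.5 and 52.5 in the WT replicates. The highest *mdf-1* library was thus below the lowest WT library, and the mean *mdf-1* level was 40.3% of the WT mean (20.4 ± 1.46 against 50.7 ± 2.30 CPM, SD, n = 3). The log2 fold change of -1.31 ± 0.069 (SE) had an adjusted p of 3.71e-06 in edgeR's quasi-likelihood test with Benjamini-Hochberg adjustment over all tested genes, the test used throughout.

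*ATR* (chr5:16342728-16353898, minus strand), the kinase of the replication checkpoint, had the largest fall of the 9. Its level was 1.90, 2.06 and 2.43 CPM in *mdf-1* and 8.91, 8.93 and 8.78 in WT, which corresponds to 81, 86 and 107 raw counts against 443, 443 and 466. The groups were far apart and the WT libraries were nearly equal, so that *mdf-1* held 24.0% of the WT level (log2 fold change -2.06 ± 0.12, adjusted p = 6.14e-06, edgeR). The gene overlaps AT5G40810 on the other strand by 200 bases at one end, and whether counting used strand is not given in the sources used here, so reads there may belong to either gene. A fall as large as that of *ATR* or larger was seen in 5.68% of all tested genes, and one as large as that of *ATM* or larger in 10.5%.

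*ATR* fell more than *ATM* and more than its partner. Per kilobase of exon, the ratio of *ATR* to *ATM* within a library was 0.109 ± 0.0062 in the mutant against 0.184 ± 0.00955 in WT (SD, n = 3). *ATRIP* encodes the protein that brings ATR to single-stranded DNA, and the ratio of *ATR* to *ATRIP* was 0.0459 ± 0.00416 against 0.217 ± 0.0120. In neither ratio did the genotypes overlap; in both the exact two-sided permutation p was 0.1, which is the smallest that 3 against 3 libraries can give, and 0.117 after Benjamini-Hochberg adjustment over the 7 ratios tested.

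*WEE1* (chr1:673306-676419, plus strand), the kinase that adds an inhibitory phosphate to cyclin-dependent kinases, stood at 4.88, 4.62 and 5.33 CPM in *mdf-1* and at 4.0, 5.14 and 4.17 in WT. The groups overlapped, and the log2 fold change of 0.16 ± 0.14 did not pass the test (adjusted p = 0.332, edgeR). A range of 2 standard errors to either side ran from -0.11 to 0.43, so a small rise was within the error of these libraries.

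The MRN complex holds broken ends together and brings ATM to them, and its 3 genes did not move alike. *RAD50* (chr2:13600431-13609104, plus strand), the long ATPase arm of the complex, was at 23.0, 25.5 and 25 CPM in *mdf-1* and at 43.2, 40.2 and 41.2 in WT. All 3 mutant libraries were below all WT libraries, at 59.0% of the WT mean (log2 fold change -0.76 ± 0.060, adjusted p = 1.96e-05, edgeR), a fall matched or passed by 18.2% of tested genes. The gene overlaps AT2G31980 on the other strand by 12 bases at one end.

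*MRE11* (chr5:22032038-22038052, plus strand), the nuclease of the complex, had 10.3, 13 and 10.9 CPM in *mdf-1* and 10.9, 12.9 and 10.3 in WT. The genotypes covered the same range, and the log2 fold change was 0.00 ± 0.12 (adjusted p = 0.999, edgeR), with -0.24 to 0.24 spanned by 2 standard errors. *NBS1* (chr3:576308-579562, plus strand), the subunit that binds ATM, had 5.53, 7.70 and 8.19 CPM in *mdf-1* and 5.19, 5.62 and 6.18 in WT. Mutant replicate 1 lay within the WT range and the other two above it, and the difference of 0.33 ± 0.16 on the log2 scale did not pass (adjusted p = 0.0926, edgeR). A range of 2 standard errors to either side ran from 0.02 to 0.65. Leaving out *mdf-1* replicate 1 gave 0.49 with an adjusted p of 0.00869, so the absence of a call for *NBS1* rested on that library.

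Per kilobase of exon, *RAD50* stood at 1.30 ± 0.105 times the level of *MRE11* in *mdf-1* libraries and at 2.22 ± 0.296 times in WT libraries (SD, n = 3). Those ratios did not overlap (exact permutation p = 0.1, the smallest possible), whereas the ratio of *NBS1* to *MRE11* overlapped between the genotypes, at 0.875 ± 0.158 and 0.701 ± 0.119 (exact permutation p = 0.3, n = 3).

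The 3 genes that fell are also the 3 longest of the 9. *ATM*, *ATR* and *RAD50* have 9734, 9295 and 4466 bases of exon in the deposited table, and the other genes have 1693 to 2688. Across the whole table, all 18 tested protein-coding genes as long as *ATR* or longer were called lower in *mdf-1*, with a median log2 fold change of -1.21. *ATR*, at -2.06, was the lowest of those 18, and 2 of them, *ATR* included, lay below *ATM*. Of the 525 tested protein-coding genes as long as *RAD50* or longer, 81.3% were called lower and 7.05% higher (median -0.60), against 33.4% and 32.1% of the 9723 tested protein-coding genes of 1500 to 2700 bases (median 0.00). The part of gene length in the fall of *ATM*, *ATR* and *RAD50* was not tested.

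**Figure D2:**
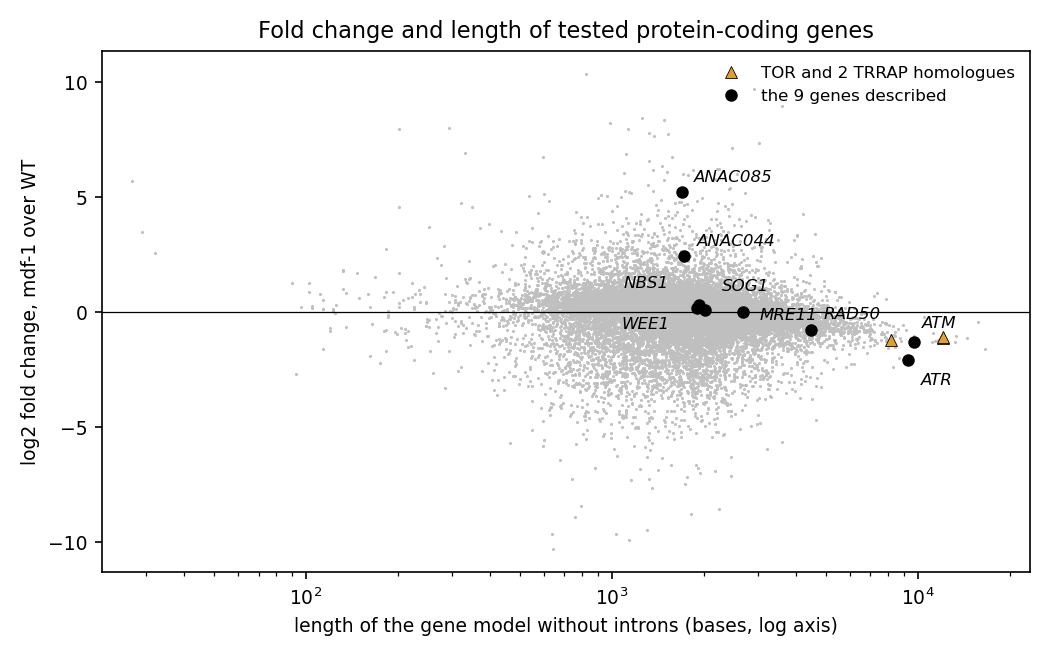
Log2 fold change of *mdf-1* over WT against the length of the gene model without introns (bases, log axis) for the tested protein-coding genes (grey), the 9 genes (black) and 3 other large kinase-family genes (triangles, the 2 *TRRAP* homologues nearly on top of each other). *ATM* and *ATR* lie at the long end, where all points are below 0, and *ANAC044* and *ANAC085* lie above the bulk of genes of like length.

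3 other genes of the same kinase family, whose members resemble phosphatidylinositol 3-kinases, are also long. *TOR*, the growth-controlling kinase, fell by 1.20 ± 0.053 on the log2 scale (adjusted p = 2.16e-06, edgeR). The *TRRAP* homologues AT2G17930 and AT4G36080, which encode scaffold proteins of histone acetyltransferase complexes with no kinase activity, fell by 1.12 ± 0.051 and 1.10 ± 0.055. *ATM* thus had a fold change near those of these 3 genes, and *ATR* a lower one.

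The NAC factors showed the largest contrast. *SOG1* (chr1:8996714-8999917, minus strand) was at 13.5, 14.4 and 13.7 CPM in *mdf-1* and at 12.9, 13.5 and 12.1 in WT. The groups overlapped and the log2 fold change of 0.11 ± 0.073 did not pass (adjusted p = 0.199, edgeR), with -0.03 to 0.26 spanned by 2 standard errors. Its sign was not fixed: with total-count scaling the log2 fold change was -0.03. *SOG1* is regulated by phosphorylation of its protein, which RNA-seq does not measure.

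*ANAC044* (chr3:229075-231517, plus strand) stood at 26.6, 32.1 and 31.5 CPM in *mdf-1* and at 3.68, 6.91 and 6.13 in WT. The lowest mutant library was well above the highest WT library, and WT replicate 1 was the lowest of all. Its mean was 30.1 ± 3.05 against 5.57 ± 1.69 CPM (SD, n = 3), and the log2 fold change of 2.43 ± 0.23 had an adjusted p of 1.48e-04 (edgeR). A rise as large or larger was seen in 1.97% of tested genes.

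*ANAC085* (chr5:4670289-4672958, minus strand) was close to silent in WT, with 4, 3 and 3 reads counted in libraries of 47175914 to 50088386 counts in total. In *mdf-1*, where totals ran from 44738352 to 45418026, it had 112, 88 and 131 reads. On the scale of CPM these were 2.63, 2.11 and 2.97 against 0.0805, 0.0605 and 0.0566. The 331 reads of the 3 mutant libraries and the 10 reads of the WT libraries gave a ratio of 39.2, corrected for library size, with an exact 95% interval of 21.1 to 82.6 that covers counting error only. The fitted log2 fold change was 5.23 ± 0.30 (adjusted p = 5.26e-06, edgeR) and ranked 46 from the top of the 22397 tested genes. Its SE, derived from the F statistic, understates the error. A range of 2 standard errors, 4.64 to 5.83 on the log2 scale, is narrower than the counting interval. DESeq2 gave 5.29 with an SE of 0.53. The WT reads alone would not have passed the read filter, so *ANAC085* entered the test, and this ranking, through the group in which it is high. A filter asking for at least 10 counts in every library removes *ANAC085*, and the count of genes called higher among the 9 is then 1.

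**Figure D3:**
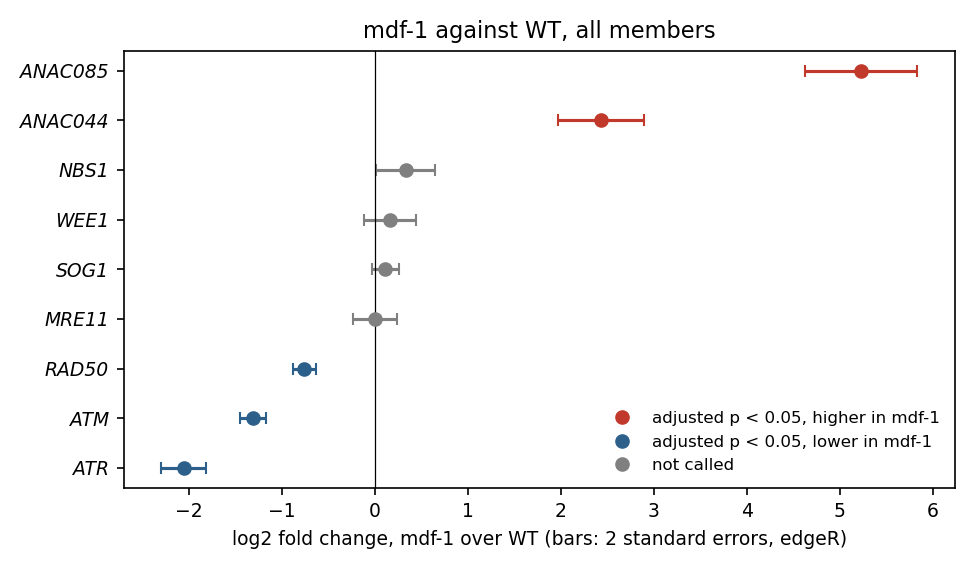
Log2 fold change of *mdf-1* over WT for the 9 genes, with bars of 2 standard errors to either side; red and blue points passed an adjusted p below 0.05 in edgeR and grey points did not. *ANAC085* at 5.23 and *ANAC044* at 2.43 are at the top, and *RAD50* at -0.76, *ATM* at -1.31 and *ATR* at -2.06 at the bottom. The bar of *ANAC085* is narrower than its counting error.

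Within libraries, the level of *ANAC044* per kilobase of exon was 2.53 ± 0.208 times that of *SOG1* in the mutant, against 0.509 ± 0.151 times in WT (SD, n = 3). *ANAC085* was at 0.221 ± 0.0427 times *SOG1* in *mdf-1* and at 0.00612 ± 0.00116 times in WT. *ANAC085* stayed below *ANAC044* in both genotypes, but by less in the mutant, with ratios of 0.0879 ± 0.0184 and 0.0135 ± 0.00757. The genotypes did not overlap in any of these 3 ratios (exact permutation p = 0.1 in each, the smallest possible with n = 3).

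The order of the 9 genes by level differed between the genotypes. Per kilobase of exon, WT seedlings had *RAD50* at 9.30 CPM, followed by *SOG1* at 6.35 and *ATM* at 5.21. Below these, *MRE11* (4.24), *ANAC044* (3.23), *NBS1* (2.94) and *WEE1* (2.34) formed a row in which each neighbour pair overlapped, and *ATR* (0.955) and *ANAC085* (0.0389) came last. In *mdf-1* the order began with *ANAC044* at 17.4, followed by *SOG1* at 6.87, *RAD50* at 5.48, *MRE11* at 4.24, *NBS1* at 3.70 and *WEE1* at 2.61, where *MRE11* and *NBS1* overlapped. *ATM* came after these at 2.1, then *ANAC085* at 1.52, and *ATR* was lowest at 0.229. *ANAC044* thus moved to the first place and *ATM* to the seventh, while *ATR* had less signal per length in *mdf-1* than *ANAC085*.

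The study's list of introns whose splicing differed between *mdf-1* and WT holds an event for 2 of the 9 genes, *ANAC085* and *ATM*, and none for the other 7. The values of that list were not used here, and the counts per gene do not separate intron from exon reads, so only the introns themselves are described, as intervals of the RefSeq annotation. *ANAC085* had 4, 3 and 3 reads over the whole gene in WT, so few WT reads can bear on its splicing. The *ANAC085* intron (chr5:4671007-4671080, minus strand) is 74 bases long, begins with GT and ends with AG. It is spliced out in 3 of the 4 annotated transcripts and kept within an exon in 1. In the following run the intron is in capitals and 15 bases of each flanking exon are in lower case:
ANAC085 intron: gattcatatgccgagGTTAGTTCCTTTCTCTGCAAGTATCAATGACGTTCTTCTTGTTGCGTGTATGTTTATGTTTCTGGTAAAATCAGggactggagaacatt
Read on in frame, the retained intron meets the stop codon TGA at its base 28. In the model with the longest coding sequence, the protein then would end after 284 residues, of which 275 are encoded before the intron, in place of 361. The other models have other coding starts or ends, so their lengths differ. In the annotated transcript that keeps the intron, the coding sequence ends at this stop.

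**Figure D4:**
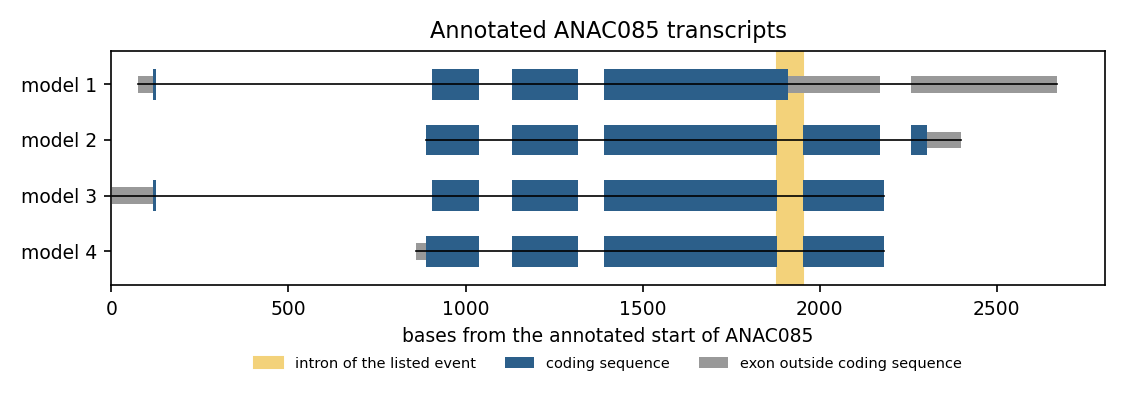
The 4 annotated *ANAC085* transcripts by distance in bases from the annotated start of the gene, with coding sequence in blue, other exon parts in grey, introns as lines and the intron of the listed event as a yellow band. In model 1 the band is part of an exon and the coding sequence stops inside it, and in the other 3 models it is spliced out.

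The *ATM* intron (chr3:17824657-17824934, plus strand) is the longer of the pair at 278 bases and is intron 64 of the 78 in the model that codes for 3013 residues. It is spliced out in 2 of the 3 annotated transcripts and retained in 1. It is shown in capitals between 10 bases of each neighbouring exon:
ATM intron: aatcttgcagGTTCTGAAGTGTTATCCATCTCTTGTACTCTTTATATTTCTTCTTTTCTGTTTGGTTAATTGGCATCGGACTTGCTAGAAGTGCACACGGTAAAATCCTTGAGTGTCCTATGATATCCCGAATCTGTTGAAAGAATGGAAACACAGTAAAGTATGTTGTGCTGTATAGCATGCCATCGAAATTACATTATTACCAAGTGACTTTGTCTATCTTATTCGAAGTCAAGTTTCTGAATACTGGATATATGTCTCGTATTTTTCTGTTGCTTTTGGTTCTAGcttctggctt
Its first stop codon in frame, TAG, is at base 76 of the intron. With the intron retained, the model of 3013 residues would code for 2568, of which 2543 are encoded before the intron. Neither intron has a length divisible by 3.

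The other genes of the pathway were read from 6 lists of 37 genes, of which 36 were tested, 9 were higher, 14 lower and 13 not called, with a median log2 fold change of 0.00. Of all tested genes 33.5% were higher and 33.9% lower with a median of 0.01, and the counts of the lists below are to be read against these shares. The ATR side of the checkpoint comprises the ATR partner, the clamp laid around damaged DNA and the loader of that clamp, and 1 of its 6 genes was higher and 2 were lower. *RAD17*, the clamp loader, rose by 0.83 ± 0.11 (adjusted p = 2.55e-04, edgeR). The clamp gene *RAD9* fell by 0.49 ± 0.16 and *MEI1*, which encodes a protein with repeated BRCT domains, by 0.43 ± 0.089. *ATRIP* (0.18), *HUS1* (0.11) and *RAD1* (-0.28) did not pass.

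Genes acting on broken ends and on the chromatin around them split evenly, with 3 higher, 3 lower and 2 not called, shares near those over all tested genes. *PARP1*, a poly(ADP-ribose) polymerase that binds breaks, fell by 1.02 ± 0.084, and its relative *PARP2* rose by 0.48 ± 0.11. *KU70*, part of the ring that protects ends for joining, fell by 0.48 ± 0.075, whereas the log2 fold change of its partner *KU80* was -0.16 ± 0.065 and did not pass. *COM1*, which works with MRN in trimming ends, rose by 0.50 ± 0.12, and *LIG4*, the ligase that joins ends, fell by 0.30 ± 0.062. Of the genes for H2AX, the histone that ATM and ATR phosphorylate at breaks, *HTA5* rose by 0.53 ± 0.052 and *HTA3* had 0.06 ± 0.060 without passing. *PARP2* and *LIG4* are named after their values were seen.

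Genes that SOG1 induces after damage were higher in 4 of 9 cases and lower in 1, with a median of 0.20, against 33.5% higher and 33.9% lower over all tested genes. The 3 largest rises were all in inhibitors of cyclin-dependent kinases, *SMR4* (1.18 ± 0.20), *KRP6* (0.98 ± 0.14) and *SMR7* (0.79 ± 0.22, log2 fold change ± SE). *SMR5*, another inhibitor of the same family, fell by 0.91 ± 0.22. The fourth gene that rose, *XRI1*, needed for meiosis and induced by X-rays, had 0.27 ± 0.078. Not called were *CYCB1;1* (0.16), *BRCA1* (0.09), *BARD1* (0.08) and *TSO2* (0.20), which, with *XRI1*, are named after their values were seen. Thus *ANAC044* and *ANAC085* had larger log2 fold changes than all 9 of these genes, and *BRCA1* and *BARD1*, whose proteins act together in repair by recombination, did not pass.

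MYB3R factors include activators and repressors of mitotic genes, and ANAC044 and ANAC085 act on the repressors. The activator genes fell, *MYB3R4* by 0.69 ± 0.12 and *MYB3R1*, which can act either way, by 0.65 ± 0.061. The repressor genes *MYB3R3* (0.05 ± 0.081) and *MYB3R5* (-0.03 ± 0.14) did not pass, and *MYB3R2* had too few reads to be tested. Of the substrates and partners of WEE1, *CDKB2;1* (-0.62), *CDKB2;2* (-0.56) and *CDKB1;1* (-0.41), kinases of the approach to mitosis, fell. *CDKA;1* (0.03), the main kinase of the cycle, and *CDKB1;2* (-0.37) did not pass, and *ARATH;CDC25*, a small homologue of the phosphatases that oppose WEE1, rose by 1.30 ± 0.055 (adjusted p = 1.86e-06, edgeR).

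**Figure D5:**
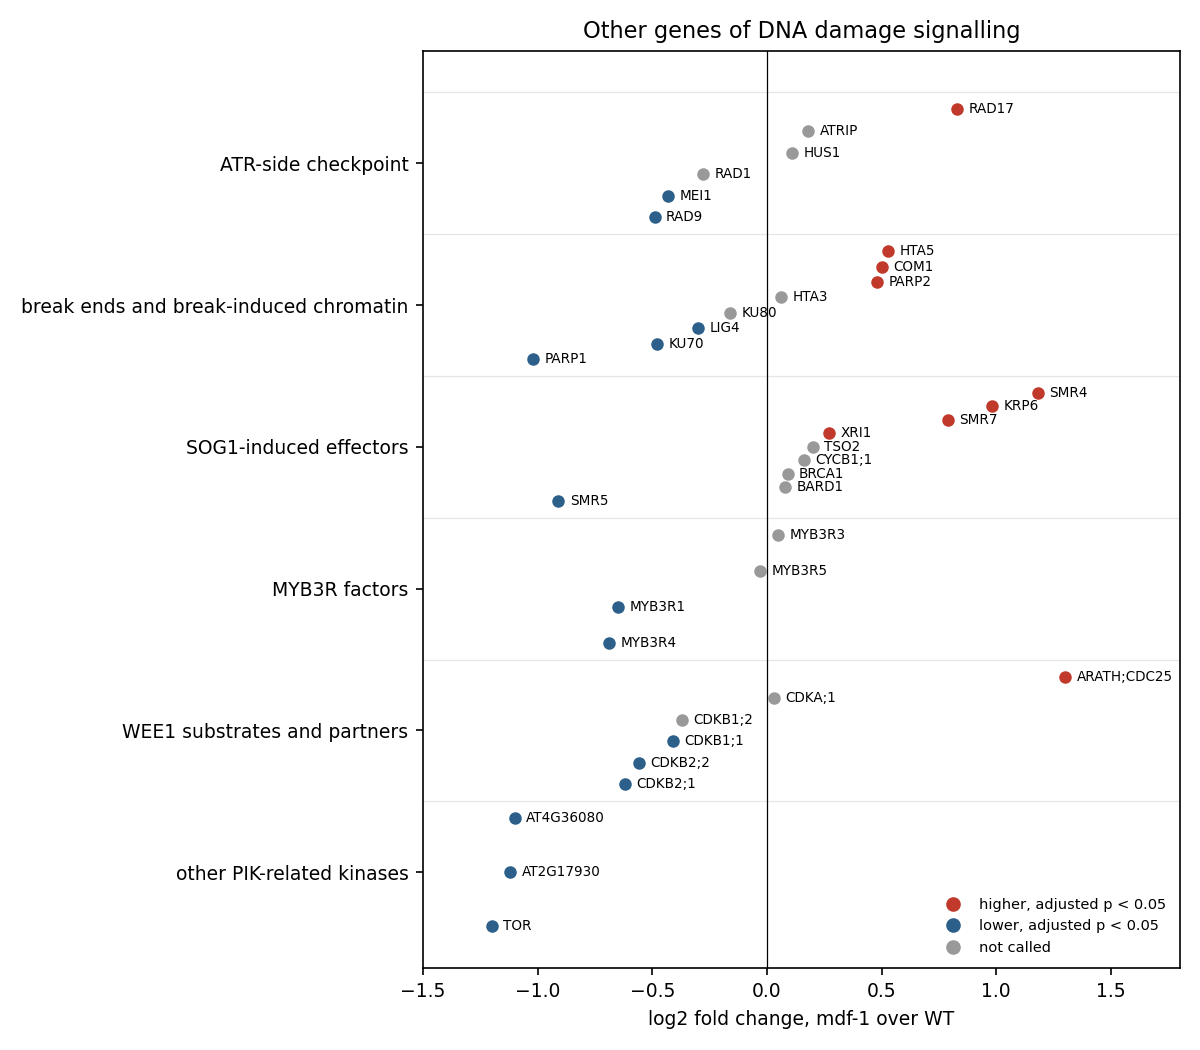
Log2 fold change of *mdf-1* over WT for the 36 tested genes of the 6 other lists, 1 point per gene, red where higher and blue where lower at an adjusted p below 0.05 (edgeR) and grey where not called. The 3 other PIK-related kinase genes are all near -1.1, and the other lists hold points on both sides of 0. Among the *MYB3R* factors the 2 called points are both lower.

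Markers of dividing cells, of the root tip and of green tissue were read in the same way. They are not independent of the lists above. The *CDKB2* genes are in both the WEE1 list and the mitosis markers, and *TSO2* is in both the SOG1-induced list and the S-phase markers. All 11 mitosis markers were lower in *mdf-1* (median -0.62), led by *PLEIADE* (-1.07), *CDC20.1* (-0.91), *HINKEL* (-0.81) and *EDE1* (-0.77), and their summed level was 141 to 176 CPM in *mdf-1* and 226 to 253 in WT. Of 6 S-phase markers, *MCM2* alone was lower (-0.26) and none was higher. Of 5 root tip markers 4 were lower, *PLT1* (-3.54 ± 0.27), *PLT2* (-2.56 ± 0.27), *SHR* (-0.75) and *SCR* (-0.25), while *WOX5* (0.26) did not pass, and the summed level was 55.7 to 58.0 against 76.9 to 81.2 CPM. Of 5 green tissue markers *LHCB2.1* (0.52), *RBCS1A* (0.51) and *PSAF* (0.42) were higher and *CAB1* (0.16) and *RCA* (-0.18) did not pass, with summed levels of 31700 to 41600 and 29900 to 33600 CPM that overlap. No marker was at 0 in any library. The part of these shifts in tissue and dividing cells in the fall of *ATM*, *ATR* and *RAD50* or in the rise of *ANAC044* and *ANAC085* was not tested.

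The genes most like *ANAC044* over the 6 libraries were *RAD17* (Pearson's r = 0.9986 on log2 CPM), AT3G08930 (0.9983) and AT3G03360 (0.9978), among 2448 tested genes with r above 0.95. For *ANAC085* these were AT5G07950 and AT4G02340 (0.9996 each) and AT1G29960 (0.9995), with 3590 genes above 0.95. Genes that separate the genotypes cleanly correlate in this way, since 3 of the 6 points are mutant and 3 are WT. AT3G08930, however, was not called different between the genotypes (log2 fold change 0.07, adjusted p = 0.2, edgeR). For *WEE1*, which did not differ between genotypes beyond the error, the closest were AT1G69330 (0.9843), *PLA2-ALPHA* (0.9815) and AT1G13050 (0.9814), and 14 genes were above 0.95. These correlations are descriptions over 6 libraries, 3 of each genotype.

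*MDF* itself (AT5G16780) had 3443, 3465 and 3465 reads in *mdf-1* and 3305, 3136 and 3435 in WT, and was called higher in *mdf-1* (0.32 ± 0.049 on the log2 scale, adjusted p = 5.86e-04, edgeR). The count covers the whole gene and does not separate exons before and after the insertion, so it does not check the labels of the libraries, on which all directions given here rest.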

How the data were processed

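RNA was read from 6 seedling libraries, 3 per genotype. Per the submitters' processing notes, the authors used fastp, HISAT2 and featureCounts with the TAIR10 genome (versions not given in the sources used here), and deposited raw counts per gene with the exon length of each gene. The table also holds FPKM, scaled counts and the authors' own DESeq2 comparison, which were not used. The members and lists were chosen with earlier results of these data known. A gene of the SOG1-induced list is not reported here and was left out of its counts. Counts were tested in edgeR 4.0.16 (R 4.3.3, filterByExpr, TMM, robust quasi-likelihood F test on genotype) over 22397 genes, with Benjamini-Hochberg adjustment at 0.05. The code was first run on simulated counts in which few genes changed, equally up and down. Far more genes differ here, so that run does not test the scaling or the error rates in these data. Alternatives were DESeq2 1.42.0, RLE or total-count scaling, no filter, at least 10 counts in every library, a threshold of 0.01, a replicate block, and leaving out each library. Named were all 9 genes, up to 4 called genes of largest change per list with uncalled ones where 3 or fewer, the 3 genes most like *ANAC044*, *ANAC085* and *WEE1*, and *MDF*; other genes were named after their values were seen, as stated beside them. Sequences came from RefSeq TAIR10.1, where 32532 of the 32548 genes found have the coordinates of the table. Exact tests used scipy 1.17.1. Intervals cover counting error only.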

Additional observations from a re-analysis of the deposited data

How the results depend on the processing

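The calls of *ATM*, *ATR*, *RAD50*, *ANAC044* and *ANAC085* kept their direction and passed the threshold under every alternative in which the gene was tested. Their log2 fold changes ranged from -1.45 to -1.26, -2.20 to -1.98, -0.91 to -0.72, 2.20 to 2.61 and 5.10 to 5.39. With at least 10 counts in every library *ANAC085* was not tested, which left 1 of the 9 genes called higher. Leaving out each library in turn gave 2 to 3 genes higher, the third being *NBS1* without *mdf-1* replicate 1, and 3 lower. The log2 fold change of *SOG1* was -0.03 with total-count scaling (0.11 with TMM). Among the pathway lists, the count of lower genes on the ATR side was 1 in place of 2 at a threshold of 0.01 and without *mdf-1* replicate 1, WT replicate 2 or WT replicate 3, and that of higher SOG1-induced genes was 2 in place of 4 at 0.01, while higher ATR-side genes numbered 2 without *mdf-1* replicate 1. Same-numbered libraries hardly deviated together from their group means (correlations 0.0443, -0.00349 and 0.0805 over 22397 genes). Pairing by number was thus not seen over all genes, but means of 3 libraries cannot exclude it. A replicate block changed the SE in both directions, from 0.23 to 0.13 for *ANAC044* and from 0.12 to 0.14 for *ATR*. With the replicate block, 2 of the 9 genes were higher and 3 lower as before, and 7302 and 7441 of all genes against 7504 and 7585. Of the S-phase markers 1 was called higher with the block or without WT replicate 3, and total-count scaling gave 2 S-phase markers and 1 green tissue marker lower, against 1 and none with TMM. The 10 WT reads of *ANAC085* limit the precision of its fold change.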
